A study of Mus musculus with 3 samples.

Results

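The genes described are those of the cytosolic ribosomal proteins. They were taken by symbol (Rpl or Rps followed by a number, or by p), leaving out the Rps6k kinases, symbols with "-ps" and Rpl symbols with a hyphen. This rule found 85 of the 19744 genes in the tables, 51 with an Rpl symbol (large subunit) and 34 with an Rps symbol (small subunit). Another 170 symbols of the same stem, nearly all named as pseudogenes, were left out by the rule and are used below only for comparison. The rule also took in a few symbols that are not ordinary subunit genes. Rps19bp1 encodes a protein that binds RPS19, Rps3a2 and Rps3a3 are annotated as processed pseudogenes, and Rpl3l and Rpl10l are tissue-restricted paralogs. Genes that encode a ribosomal protein under another name, such as Rpsa, Fau and Gnb2l1, fell outside it and are given as a separate list.

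The counts come from medulloblastomas of 3 mice, 1 tumour a mouse, profiled cell by cell with Drop-seq. All mice were C57BL/6 of the genotype hGFAP-Cre/SmoM2 (G-Smo), in which Cre driven by the human GFAP promoter switches on SmoM2, a constitutively active Smoothened, in neural precursors that include cerebellar granule neuron progenitors. Each was given palbociclib, an inhibitor of CDK4 and CDK6, as the polyoxazoline nanoparticle form POx-palbo at 25 mg/kg by intraperitoneal injection, in 5 daily doses from postnatal day 10, and tumours were collected on postnatal day 16. All 3 tumours belong to this 1 group and untreated tumours are not analysed here, so no effect of the drug can be read from them. Comparisons are between sets of barcodes within the same tumours, and the tumour is the replicate.

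Each cytosolic ribosome is built from a fixed set of these proteins, joined with ribosomal RNA into a small subunit that reads the mRNA and a large subunit that forms the peptide bond. The acidic stalk proteins P1 and P2 stand on P0 and recruit translation factors. Ribosomal protein mRNAs are abundant, short and stable, and begin with a C followed by a run of pyrimidines, the 5' terminal oligopyrimidine (TOP) motif, through which the kinase mTOR and the protein LARP1 control their translation. The series title names sapanisertib, an mTOR inhibitor, as the drug to be combined with palbociclib. Translation itself was not measured.

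The TOP motif is a feature of sequence that these genes are known to share, so their start regions are shown first. RefSeq promoter windows (GRCm38.p6) were matched for 61 of the 85 genes by symbol. The sense strand from 50 bases before to 50 bases after the annotated start was searched for runs of C or T that begin with C, and a run of at least 7 bases was counted. Such a run was found in 51 of 61 ribosomal protein genes (83.6%), with a median longest run of 10 bases, against 44.0% of the 11422 genes of the tables with an entry, whose median was 6 bases. A match describes the letters near an annotated start and is not evidence of a start site. Among the genes with long runs were Rpl34 (chr3:130730330-130730359, minus strand) with 20 bases, as many as in Rpl27a, and Rps24 (chr14:24490711-24490740, plus) and Rpl35 (chr2:39005115-39005144, minus) with 18 bases each. The run had 15 bases in Rpl4 (chr9:64173406-64173435, plus), 11 in Rps19 (chr7:24884624-24884653, plus) and 8 in Rps26 (chr10:128626484-128626513, minus). Rps3 (chr7:99483673-99483702, minus) and Rpl24 (chr16:55966227-55966256, plus) are printed as genes whose longest runs, of 5 and 6 bases, fell under the minimum. Capitals mark the run, in windows of 30 bases read in the direction of transcription.

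Rpl34: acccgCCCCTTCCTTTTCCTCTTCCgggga
Rps24: agcggtCCTCTTTTCCTCCTCTCCagctcc
Rpl35: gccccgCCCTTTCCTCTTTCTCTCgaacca
Rpl4: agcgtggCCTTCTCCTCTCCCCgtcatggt
Rps19: cccgtcgttCCCTTTCCCCTggctggcagc
Rps26: agccgccggatCCTCTTTCgagtcttggct
Rps3: gcggcgtcattgCTCCCgccctatatacct
Rpl24: acctcaaacccaCTCCCCgccaatgctgta

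The tables were shallow. There were 8827 barcodes in tumour 1, 2330 in tumour 2 and 9802 in tumour 3. Their totals were 1150463, 248617 and 1324350 counts. The median barcode had 84, 85 and 105 counts, and 1060, 148 and 1059 barcodes reached 200. Between 3 and 8 barcode sequences were shared by each pair of tumours. In barcodes of at least 200 counts, 12 granule neuron progenitor markers summed to 40.1 to 50.7 per 10000 counts. The 11 granule neuron markers summed to 43.8 to 51.5, so genes of both lists were detected. Gabra6, a marker on the granule neuron list, had no count in these barcodes. Whether the second sum stands for granule neurons alone was not tested. Tumour 2 stood apart, with the fewest counts, a mitochondrial share of 11.5 to 11.6% in barcodes under 500 counts and the highest microglia and macrophage marker level in deep barcodes (27.7 per 10000, against 7.89 and 9.91).

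Ribosomal protein genes took a small and unequal part of the counts. Their share of non-mitochondrial counts was 3.36% in tumour 1, 2.05% in tumour 2 and 4.05% in tumour 3, from 37075, 4505 and 50643 counts. Tumour 2 was the lowest. The symbols left out for "-ps" or a hyphen added 0.264%, 0.185% and 0.244%. The median level of the 85 genes was 2.57, 1.36 and 3.31 counts per 10000 non-mitochondrial counts, 2.41 ± 0.984 on average (SD, n = 3). Levels are molecule counts from the 3' end and are not divided by transcript length, since each molecule gives 1 tag whatever its length.

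A few genes held much of the signal. The 10 highest genes took 39.7%, 38.9% and 39.5% of all ribosomal protein counts in the 3 tumours. Rps19, a small subunit protein needed to mature the small subunit's RNA, was highest at 17.0, 15.6 and 21.3 counts per 10000 (18.0 ± 2.96, SD, n = 3). Rpl41, which encodes a very short basic peptide, followed at 17.0, 10.2 and 20.3 (15.8 ± 5.15). Their ranges overlapped, so the order of these neighbours is within the spread between tumours. Next came Rps9 at 14.3, 8.31 and 17.2 (13.3 ± 4.52) and Rpl4 at 14.9, 8.72 and 15.8 (13.1 ± 3.83). Rps14, Rpl13a, Rps3, Rplp0 and Rpl32 came after these, with means from 12.5 down to 8.72 and SDs from 3.16 to 5.03. No step within these 10 genes was larger than the SDs on its sides. These levels depended on which barcodes were summed. In barcodes of at least 200 counts alone, the mean level of Rps19 was 9.05 per 10000, that of Rpl41 8.53, that of Rpl4 8.04 and that of Rpl32 4.53.

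At the other end, 81 of the 85 genes had a count in every tumour. The 5 lowest of these were Rps3a3, Rps6, Rpl10, Rpl36 and Rps12l2. Rps6, the small subunit protein whose phosphorylation by S6 kinase is the usual readout of mTOR activity, had 43, 2 and 18 counts (0.389, 0.0908 and 0.144 per 10000). Rpl10, a late-joining large subunit protein, had 42, 1 and 23 counts, and Rpl36 had 10, 6 and 15 (0.161 per 10000 on average, and 0.0254 in barcodes of at least 200 counts alone). Rps19 and Rps6, both proteins of the small subunit, thus had mean levels of 18.0 and 0.208 per 10000. Rpl3l and Rpl10l, the paralogs restricted to muscle and to testis, had 2 and 1 counts in all. The remaining pair under 10 counts were Rps12l2 and Rps3a2, with 4 each.

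**Figure D1:**
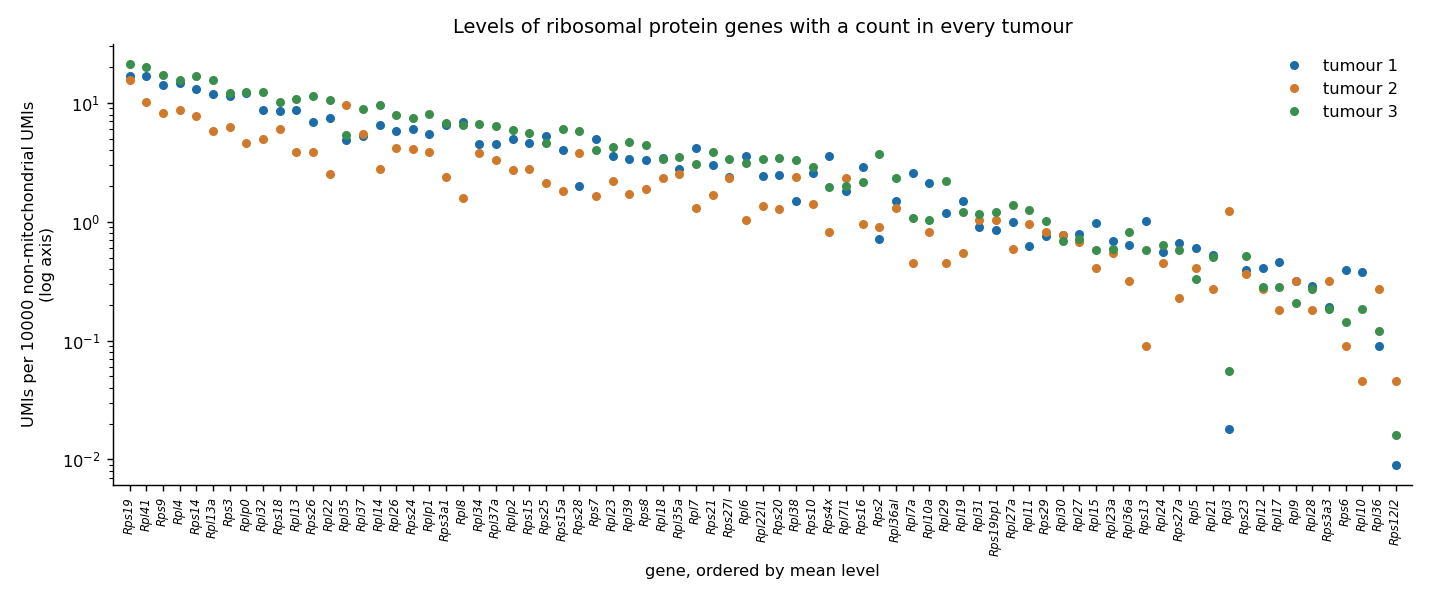
Counts per 10000 non-mitochondrial counts (log axis) of 77 of the 81 ribosomal protein genes with a count in every tumour, ordered by mean; each point is 1 tumour. Levels ran from 18.0 for Rps19 to 0.0235 for Rps12l2 on average, and tumour 2 lay lowest for most genes, with Rpl35 and Rpl3 among the exceptions.

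The P-stalk genes did not have equal counts. Rplp0, the stalk base, was at 12.2, 4.59 and 12.5 per 10000, Rplp1 at 5.47, 3.91 and 8.14 and Rplp2 at 4.96, 2.72 and 5.90. Rplp0 was above Rplp1 and Rplp2 in each tumour, and Rplp1 above Rplp2, with means that differed by less than their SDs (5.84 ± 2.14 and 4.53 ± 1.63). Of the paralog pairs, Rpl22 exceeded Rpl22l1 in all 3 tumours (7.43, 2.54 and 10.6 against 2.45, 1.36 and 3.38). Rpl36a was below its paralog Rpl36al in all 3 (0.643, 0.318 and 0.816 against 1.49, 1.32 and 2.34). Rpl7 was above Rpl7l1 in tumours 1 and 3 (4.20 and 3.04 against 1.83 and 2.02) and below it in tumour 2 (1.32 against 2.32). Rps27l, whose parent gene is not analysed here, had 2.40, 2.32 and 3.37. Rps4x, the X-linked form of a protein of the small subunit, had 3.55, 0.817 and 1.96, and Rps19bp1 had 0.851, 1.04 and 1.20.

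How much of a gene's transcript end is its own sequence varied across these genes. In GENCODE M21 transcripts, the last 300 bases up to the stop codon were divided into overlapping windows of 50 bases, and each was looked for in transcripts of all other genes, pseudogenes included. A value could be given for 81 genes. The median ribosomal protein gene had 18.3% of its windows to itself, against 100% for the median of 13834 protein-coding genes of the tables. Under 50% was found for 64 of 81 (79.0%), against 8.97%, and 31 had no unique window. Rpl4 had 94.4% of its windows to itself and Rps3 86.9%, while Rpl3, Rpl10, Rps6 and Rpl9 had 0%. The 31 genes with no unique window had a median level of 0.730 per 10000, the 33 with some but under 50% had 4.33, and the 17 with at least 50% had 5.04. Across the 81 genes, level and percentage of unique windows had a Spearman correlation of 0.52, given as a description, since all points come from the same libraries. Rpl13a was an exception, with no unique window and the seventh highest level. Windows past the stop codon were not searched, and how reads that match several genes were counted is not given in the sources used here. Low counts of Rps6, Rpl10, Rpl3 and the like are therefore uncertain as levels of those genes. Rpl36a, Rpl36al and Rpl7 also had 0% and Rpl7l1 62.55%, so the order within these paralog pairs is uncertain too.

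**Figure D2:**
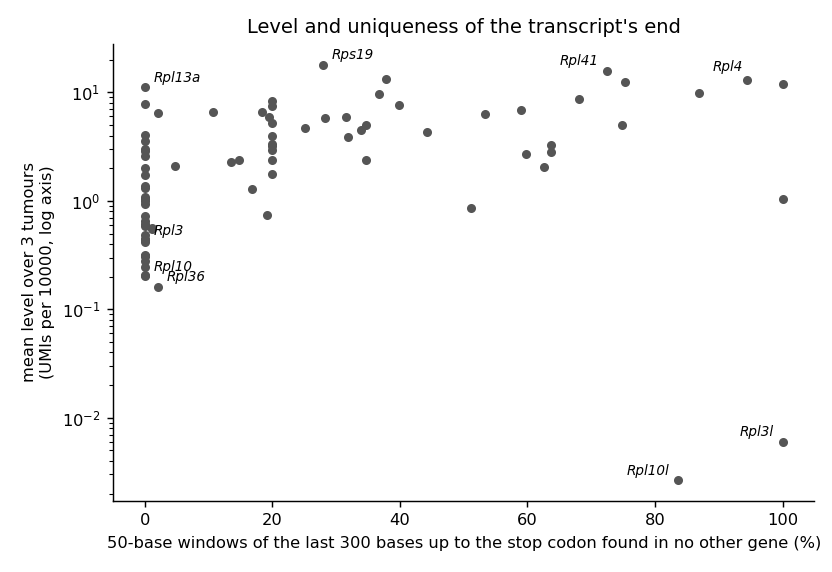
Mean level over 3 tumours (counts per 10000, log axis) against the percentage of 50-base windows found in no other gene, for the 81 genes with a value; each point is a gene. The lowest subunit genes, such as Rpl10 and Rpl36, lie at or near 0%, Rpl4 lies high at 94.4%, and the paralogs Rpl3l and Rpl10l are near 0 counts with mostly unique windows.

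Counts were divided between several of these genes and a "-ps" symbol of the same stem. In tumour 1, Rps2 had 79 counts and Rps2-ps13 had 755, so 90.5% of the pair went to the pseudogene symbol (exact 95% interval 88.3 to 92.4%). In tumour 3 the counts were 467 and 122, or 20.7% (17.5 to 24.2%), and in tumour 2 they were 20 and 5, or 20% (6.83 to 40.7%). The interval of tumour 1 was apart from both others. Over the last 200 coding bases these transcripts were identical at all but 1, and the 30 bases that end just after the mismatch are printed here because they hold the only difference found in that stretch. The capital marks the base that differs.

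Rps2: ccatctccaagacttacagctacctgacTc
Rps2-ps13: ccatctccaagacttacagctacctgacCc

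The summed pair was at 7.55, 1.14 and 4.71 counts per 10000, so tumour 1, low for Rps2 itself (0.715 against 3.74 in tumour 3), was the highest for the pair. Rpl3 is a core protein of the large subunit. It had 2, 27 and 7 counts against 241, 17 and 193 of Rpl3-ps1, or 99.2%, 38.6% and 96.5% of the pair on the pseudogene symbol. The summed pair of Rpl3 was at 2.20, 2.00 and 1.60 per 10000, a narrower range than that of Rpl3 alone (0.0181, 1.23 and 0.0560). Rpl14 and Rpl14-ps1, 99% identical over 200 bases, were counted at 717 against 638, 61 against 83, and 1201 against 822. The transcripts of Rpl10a, Rps16 and Rps6 and those of Rpl10a-ps1, Rps16-ps2 and Rps6-ps3 were identical over all 200 bases. Their pseudogene symbols took 21.7 to 28.6%, 25.6 to 41.7% and 48.2 to 80.0% of the pair. Rps19-ps11 took 1.41 to 4.71% of its pair and Rpl13-ps3, 95.5% identical to Rpl13 over 200 bases, 3.39 to 7.61%. For the pairs of Rpl3 and Rps19 no ungapped match of at least 90% over those bases was found, so no identity is given. Whether any of these pseudogenes is transcribed was not tested, and intervals cover counting error only.

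**Figure D3:**
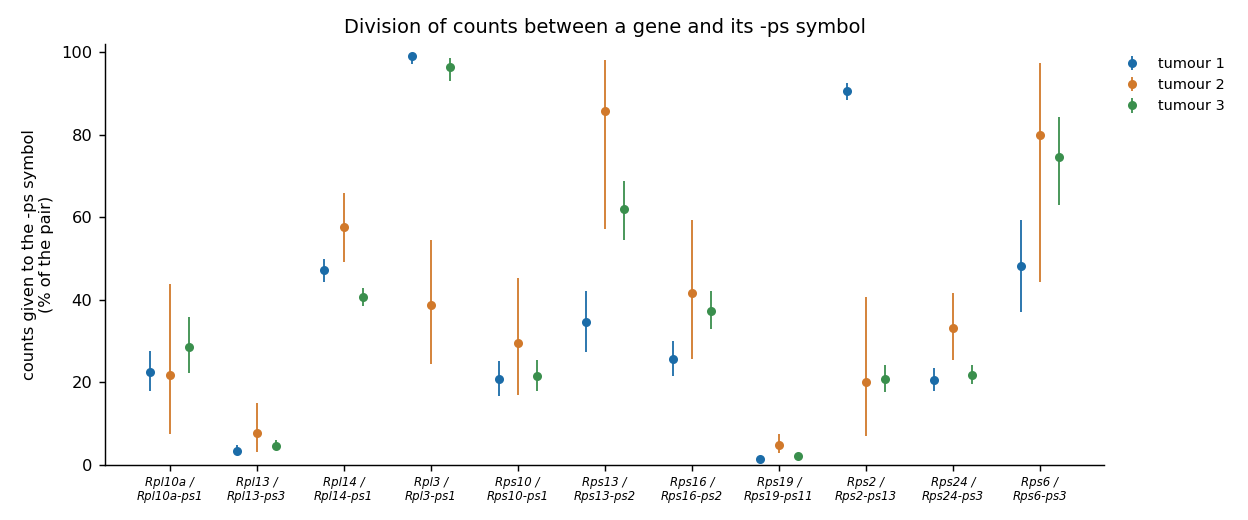
Percentage of a pair's counts given to the "-ps" symbol in each tumour, for 11 gene and pseudogene pairs; points are tumours and bars exact 95% binomial intervals. Rps2 stands at 90.5% in tumour 1 and near 20% in the others, while Rps19 and Rpl13 stay under 8% in every tumour.

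Most genes differed between tumours in the order of the total share. Of the 70 genes with at least 100 counts and a count in every tumour, 58 were lowest in tumour 2 (82.9%) and 48 highest in tumour 3 (68.6%). Over all 5320 genes with as many counts, 45.5% were lowest in tumour 2 and 30.8% highest in tumour 3. The median coefficient of variation over tumours was 36.6%, from 5.79% for Rpl30 to 94.7% for Rps2, against a median of 21.9% over all those genes. Rps2, Rps13 and Rpl7a had the highest values, and Rps13 rested on 2 counts in tumour 2. When each gene was taken as a percentage of all ribosomal protein counts of its tumour, which removes the total share, 3 of the 70 genes had an interval in tumour 2 above those of both others and 6 an interval below them. Those above were Rpl35, Rpl7l1 and Rps19, and those below were Rpl13, Rplp0, Rps3a1, Rpl14, Rpl22 and Rpl8. Tumours 1 and 3 differed in more genes. Of the 70, 19 had an interval in tumour 1 above that of tumour 3, and 14 an interval below it. The same counts over all genes are not given here. Rpl35, which lies at the exit of the peptide tunnel, took 1.45% of ribosomal protein counts in tumour 1, 4.68% in tumour 2 and 1.34% in tumour 3. Its level of 9.58 per 10000 in tumour 2 was above those of tumours 1 and 3 (4.86 and 5.42). With 1 tumour each these are differences between libraries and not between conditions, and the genes were singled out after their values were seen.

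The ribosomal protein share moved with the number of counts in a barcode. In barcodes under 100 counts, their share of non-mitochondrial counts was 4.94%, 2.45% and 4.94% in tumours 1, 2 and 3. From 100 to under 200 counts it was 3.67%, 1.80% and 4.65%, and from 200 to under 500 counts 1.72%, 1.38% and 2.55%. At 500 counts or more it was 1.56%, 1.84% and 2.07%. The share fell from class to class in tumours 1 and 3. In tumour 2 it fell over the first 3 classes and was higher in the last, which held only 9 barcodes and in which 1 barcode gave 64 of the 153 ribosomal protein counts. The mean was 4.11% ± 1.44 under 100 counts and 1.82% ± 0.252 at 500 or more (SD, n = 3). The nuclear noncoding RNA Malat1 was higher from class to class over the first 3, from 1.75%, 6.38% and 3.00% under 100 counts to 4.89%, 9.69% and 5.26% at 200 to under 500. At 500 counts or more Malat1 was at 5.61%, 6.45% and 5.49%, so that in tumour 2 it was again near its value under 100 counts. The mitochondrial share rose from 2.26% to 6.15% in tumour 1 and from 4.82% to 5.89% in tumour 3, and was 11.5% and 8.99% in tumour 2 (under 100 against 500 or more). Their part in the pattern was not tested.

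**Figure D4:**
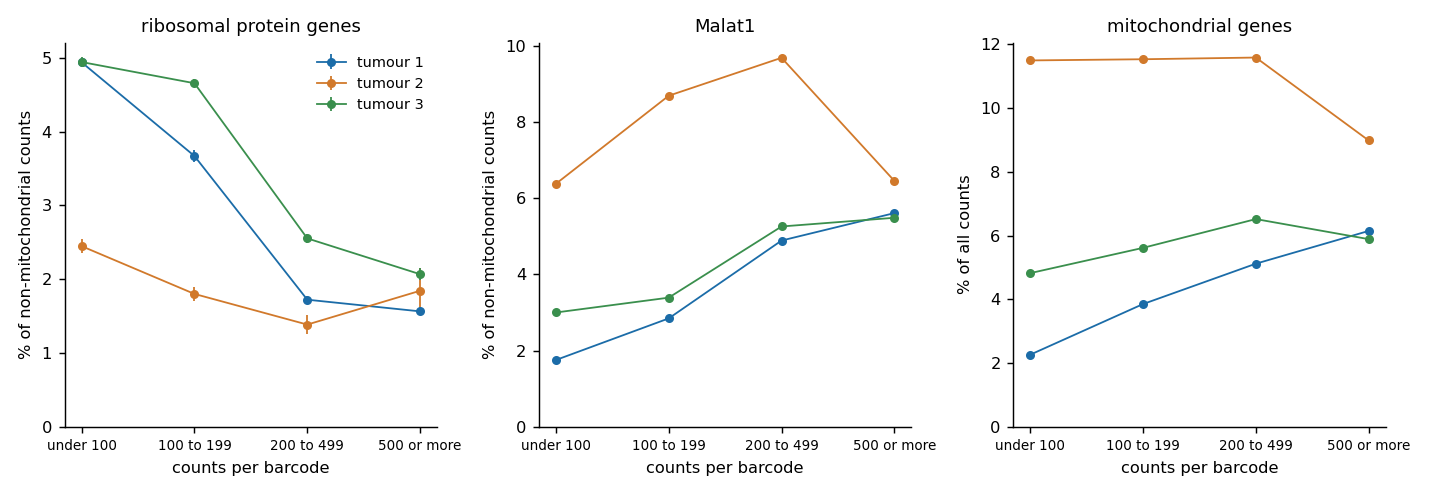
Share of ribosomal protein genes and of Malat1 in non-mitochondrial counts, and of mitochondrial genes in all counts, by class of counts per barcode; lines are tumours and bars in the first panel exact 95% intervals. The ribosomal protein share went from 4.94% to 1.56% in tumour 1 and from 4.94% to 2.07% in tumour 3, while Malat1 was higher at 200 to under 500 counts than under 100 in each tumour.

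Gene by gene, barcodes of at least 200 counts were compared with those under 100 counts, by edgeR's quasi-likelihood test on counts summed per tumour and set, with the tumour as a block and Benjamini-Hochberg adjustment over all 6480 genes tested. Of the 85 genes 74 passed the filter on low counts. Of these, 61 were lower in the deep barcodes and 0 higher, while 10.6% of all genes tested were called lower and 17.1% in either direction. The median log2 difference, deep minus shallow, was -1.24 over the 74 genes and -0.02 over all genes. By level alone, 56 of the 74 were lower in the deep barcodes of all 3 tumours (75.7%), against 23.1% of all genes tested. Levels are shares of a set's counts, so a lower level does not mean fewer molecules per barcode. Both subunits took part, with 33 of 44 Rpl symbols (median -1.22) and 28 of 30 Rps symbols (median -1.30). The 11 untested genes were too low for a test, among them Rps6, Rpl10 and Rpl3.

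The lowest p was that of Rpl34. It had 1.77, 1.46 and 3.51 counts per 10000 in the deep barcodes of tumours 1, 2 and 3, and 7.14, 4.69 and 8.57 in the shallow ones. The ranges did not overlap, and the log2 difference was -1.70 ± 0.26 (SE, edgeR adjusted p = 1.16e-07). Rps26, at the mRNA exit channel, had 2.61, 2.19 and 5.36 against 10.7, 5.08 and 14.3 (log2 difference -1.70 ± 0.26, edgeR adjusted p = 1.20e-07). Its deep and shallow ranges overlapped, although within each tumour the deep set was lower. Rps24 had 2.27, 1.94 and 4.05 against 9.30, 5.75 and 8.91, with no overlap (-1.63 ± 0.26, edgeR adjusted p = 2.04e-07). Rps19, the gene with the highest level, had 7.27, 7.77 and 12.1 against 26.5, 19.3 and 26.4, again with no overlap (-1.52 ± 0.26, edgeR adjusted p = 1.56e-06). Rpl32, Rpl35, Rpl22, Rps3a1 and Rpl13a were also among the 10 lowest p-values, with log2 differences from -1.55 to -1.46. All 10 were lower in the deep set of each tumour.

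The genes that did not pass were mostly of low count. They included Rpl30, Rpl27, Rpl7a, Rps3a3, Rpl7l1, Rpl23a, Rpl10a, Rpl18, Rpl5, Rpl21, Rpl24 and Rpl9, and are named after their values were seen. Their median count in all was 104, against 706 for the 61 that passed. Rpl9 (log2 difference 0.59 ± 0.54, edgeR adjusted p = 0.477) and Rpl24 (0.26 ± 0.41, edgeR adjusted p = 0.703), a large subunit protein facing the small subunit, had the highest values. Rpl24 was at 0.705, 0.486 and 0.670 per 10000 in deep and 0.488, 0.479 and 0.606 in shallow barcodes. By uniqueness of sequence, the median log2 difference was -1.16 for 26 genes without a unique window, -1.30 for 32 with some and -1.27 for 15 with at least 50%. Of the 12 "-ps" symbols tested, 11 were lower in deep barcodes, among them Rps2-ps13 (log2 difference -1.70 ± 0.31) and Rpl14-ps1 (-1.44 ± 0.26).

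Marker levels of the granule lineage and of other cell types differed between these sets as well. Granule neuron markers summed to 55.9, 74.3 and 58.9 per 10000 in shallow and 43.8, 46.1 and 51.5 in deep barcodes, with no overlap, and of 10 tested 2 were lower and 1 higher in the deep set. Progenitor markers summed to 38.7, 40.2 and 43.5 in shallow and 45.3, 40.1 and 50.7 in deep barcodes, with 2 of 10 higher. The proliferation gene Mki67 was higher in deep barcodes (log2 difference 1.43 ± 0.25, edgeR adjusted p = 2.61e-06). The 5 erythroid markers in the tables summed to 5.79, 7.09 and 11.5 per 10000 in shallow and 1.07, 3.40 and 3.40 in deep barcodes, with 4 of 4 tested lower in the deep set, and Alas2 at 0 in deep barcodes. Microglia and macrophage markers summed to 3.06 to 7.44 per 10000 in shallow and 7.89 to 27.7 in deep barcodes, with 3 of 9 tested higher. Endothelial and mural markers summed to 1.46, 1.34 and 1.15 in shallow and 2.14, 9.71 and 1.85 in deep barcodes. The part of these differences in the result was not tested beyond what follows. When barcodes with at least 2 counts of another cell type's markers were left out, 59 of 73 ribosomal protein genes were lower, against 10.5% of all genes, and without the barcodes over 10% mitochondrial counts 57 of 74, against 9.18%. Fitted without the tumour block, 7 of 74 were lower, against 0.988% of all genes, at a median log2 difference of -1.15. Without tumour 3, 0 of 69 passed edgeR's threshold, as did 0 of all 5863 genes tested (0%). At an unadjusted p under 0.05 (edgeR) were 49 of the 69, against 791 of the 5863. The median log2 difference of the 69 was -1.26. Without tumour 1, 11 of 66 were lower, against 0.479% of all genes, at a median of -0.98. In a nearer comparison, 200 to under 500 against 100 to under 200 counts, 49 of 68 were lower, against 4.88% of all genes.

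The neighbours of these genes in the translation pathway were then read in the same comparison, in which 10.6% of all genes tested were lower and 6.56% higher in deep barcodes. Of 4 ribosomal proteins with another symbol, 3 were lower in deep barcodes (among them Rpsa, -1.23 ± 0.33, and Gnb2l1, -0.85 ± 0.26). Of 6 elongation factors tested 5 were lower, among them Eef1a1, which brings aminoacyl-tRNA to the ribosome (-0.92 ± 0.26), and Eef2, which drives translocation (-0.73 ± 0.26). Of 12 genes listed as other TOP mRNAs 7 were lower, led by Btf3 (-1.39 ± 0.29), Naca (-1.28 ± 0.27) and Tpt1 (-1.61 ± 0.36). This list also held Npm1 (-0.84 ± 0.25), again on the ribosome biogenesis list, and Eif4ebp1 (-1.35 ± 0.44), again on the mTOR list. Both were lower and are counted in each. Mitochondrial ribosomal proteins, nuclear genes whose mRNAs serve the ribosome of another compartment, had 25 of 68 lower and 0 higher (median -0.80), with Mrpl54 at -2.01 ± 0.44. Initiation factors were divided. Of 32, 9 were lower, with Eif3k (-1.21 ± 0.28), Eif3i (-1.32 ± 0.31) and Eif3h (-1.18 ± 0.28), all of the eIF3 complex, while the scaffold genes Eif4g1 (1.30 ± 0.25) and Eif4g3 (1.06 ± 0.26) were higher. Ribosome biogenesis genes had 3 lower and 1 higher of 27 (median 0.15), shares near those of all genes, with Mybbp1a the higher one (1.00 ± 0.27). In the mTOR pathway, 3 of 11 were higher (Tsc1, Rictor and Larp4) and 2 lower (Eif4ebp1 and Rheb), and Rps6kb1, the S6 kinase, was at -0.05 ± 0.27.

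The next comparison asked whether ribosomal protein genes differed between barcodes with and without Neurod1, a transcription factor that marks granule cells leaving the progenitor state. Among barcodes of at least 200 counts, 330, 51 and 407 had a Neurod1 count and 730, 97 and 652 had none. The ribosomal protein share was 1.50%, 1.43% and 2.23% with Neurod1 and 1.71%, 1.51% and 2.49% without. The means were 1.72% ± 0.440 with and 1.90% ± 0.516 without (SD, n = 3), and these SDs include differences between whole tumours. Within tumours the share was lower with Neurod1 in each of the 3, by 0.182 ± 0.0948 percentage points on average (SD of the paired difference). The size of this difference depended on the barcodes used. It was -0.396 without barcodes holding other cell type markers and -0.342 after each barcode was thinned to 200 UMIs. From 100 counts upward it was -0.493, in sets that also differed in depth. Under all of these the share was lower with Neurod1 in each tumour. Tumour 2 rested on few counts. Without other cell type markers it was at 0.942% with Neurod1 (97 ribosomal protein counts) and 1.55% without. Tumours 1 and 3 were there at 1.48% and 2.18% with and 1.71% and 2.53% without. After thinning, tumour 2 was at 1.02% (70 counts) and 1.50%. From 500 counts upward the mean difference was 0.178, with 2 of 3 tumours lower and tumour 2, with 4 and 5 barcodes, higher. Of 55 genes tested, 0 passed edgeR's threshold, with 3 at an unadjusted p under 0.05 and 0 by DESeq2. Over all 3479 genes tested 1.03% were called, and 0.0901% by DESeq2, while 369 had an unadjusted p under 0.05 by edgeR. The median log2 difference was -0.16, against -0.02 over all genes. By level, 12 of 55 were lower in all 3 tumours (21.8%), against 17.6% of all genes.

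The lowest values were those of Rpl18 (log2 difference -0.63 ± 0.25, edgeR adjusted p = 0.346), Rps15 (-0.57 ± 0.23, 0.369) and Rpl13a (-0.45 ± 0.19, 0.370). Rpl18 was at 1.67, 1.69 and 2.56 per 10000 with Neurod1 and 2.94, 1.71 and 3.77 without, lower in each tumour but with ranges that overlapped. Rps15 had 2.50, 0.564 and 3.15 against 3.25, 2.56 and 4.95. Rps27l and Rpl7a followed at -0.43 ± 0.32 and -0.42 ± 0.38. Among the highest were Rpl29 (0.26 ± 0.45), Rps15a (0.26 ± 0.31), Rps2 (0.23 ± 0.36) and Rps28 (0.23 ± 0.26), none past the threshold. Rps19, with 7.37, 11.3 and 10.4 against 7.24, 5.13 and 13.3, went in different directions in different tumours.

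The division itself separated other genes. Of 8 granule neuron markers tested 4 were higher with Neurod1, and the cell cycle gene Top2a was lower (-0.71 ± 0.16, edgeR adjusted p = 0.0357). Granule neuron markers other than Neurod1 summed to 45.4 and 41.0 per 10000 with it in tumours 1 and 3, and 21.2 and 22.1 without. In tumour 2 their sum was not higher with Neurod1 (27.6 against 28.6). None of the genes of the 7 lists named above passed. Of 24 ribosome biogenesis genes, 8 had an unadjusted p under 0.05 (edgeR), at a list median of -0.34. Over all genes 369 of 3479 were at that p, and each other list had 0 to 3 such genes. Eef1a1 was at -0.49 ± 0.20 (edgeR adjusted p = 0.363). Microglia and macrophage markers of tumour 2 summed to 46.3 per 10000 with Neurod1 and 13.7 without. In tumours 1 and 3 they were lower with Neurod1 (5.84 against 8.90 and 5.25 against 13.2). Oligodendrocyte lineage markers were at 7.71, 30.5 and 3.48 with Neurod1 in tumours 1, 2 and 3, and 6.33, 2.99 and 5.45 without. Endothelial and mural markers were at 0.0695, 18.1 and 2.10 against 3.15, 3.42 and 1.68. Median counts were 372.5, 253 and 316 with Neurod1 and 345, 256 and 294 without. Mean counts were 461, 378 and 398 against 430, 279 and 363, higher with Neurod1 in each tumour. With barcodes from 100 counts upward, 0 of 68 passed, against 1.09% of all genes, and the median was -0.27. Median counts in those sets were 194, 152 and 141 with Neurod1 against 144, 130 and 128 without, and the part of depth was not tested. At an unadjusted p under 0.05 (edgeR) were 16 of the 68, against 505 of all 5231 genes. Within 200 to under 300 counts the median was -0.13 and within 100 to under 150 counts -0.11. In both 0 were called, against 0.955% and 0.0638% of all genes. At an unadjusted p under 0.05 (edgeR) there were 0 and 2, against 73 of all 628 and 42 of all 1567 genes.

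Barcodes were last divided by a count of Mki67 or Top2a, genes of cells in or near division, which CDK4 and CDK6 promote. The sets held 343, 58 and 377 barcodes with and 717, 90 and 682 without. The ribosomal protein share was 1.65%, 1.51% and 2.22% with and 1.64%, 1.44% and 2.50% without, lower with these genes in tumour 3 and slightly higher in the other two. The means were 1.80% ± 0.377 and 1.86% ± 0.563 (SD, n = 3), a paired difference of -0.0619 ± 0.186 percentage points. The direction was not stable. Without barcodes holding other cell type markers the share was lower in all 3 tumours (-0.239 ± 0.197), as it was from 100 counts upward (-0.564 ± 0.449), while without tumour 3 the mean difference was 0.0437. Of 58 genes tested 0 passed edgeR's threshold, with 1 at an unadjusted p under 0.05 and 0 by DESeq2. Over all 3866 genes 2.87% were called, and 0.408% by DESeq2, while 425 had an unadjusted p under 0.05 by edgeR. The median log2 difference was -0.09, against -0.02 over all genes, and 8 of 58 were lower in all 3 tumours (13.8% against 14.5%).

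Rpl19 had the highest log2 difference, 0.57 ± 0.46 (edgeR adjusted p = 0.789), followed by Rpl37a (0.40 ± 0.25), Rps3a1 (0.37 ± 0.23), Rpl22l1 (0.35 ± 0.33) and Rpl6 (0.29 ± 0.32). Rpl37a was at 2.37, 5.41 and 4.25 per 10000 with and 1.89, 0.965 and 3.58 without, and the value of tumour 2 rested on 11 counts against 2. The lowest were Rps2 (-0.76 ± 0.42), Rpl29 (-0.75 ± 0.49), Rpl24 (-0.50 ± 0.51), Rpl27a (-0.42 ± 0.48) and Rpl26 (-0.37 ± 0.26). In the same fit Neurod1 was lower in barcodes with Mki67 or Top2a (-1.14 ± 0.13, edgeR adjusted p = 2.39e-06), and 5 of 9 granule neuron markers were lower. None of the genes of the 7 lists passed edgeR's threshold, with list medians from -0.05 to 0.12. Each list had 0 to 2 genes at an unadjusted p under 0.05 (edgeR), and over all genes 425 of 3866 were at that p. The 4 ribosomal proteins with another symbol had a median of 0.11.

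Depth differed between these sets. Barcodes with Mki67 or Top2a had median counts of 447, 274.5 and 359, against 318, 246.5 and 284 without. When the minimum was lowered to 100 counts, 5 of 68 ribosomal protein genes were lower with Mki67 or Top2a, against 1.08% of all genes called lower. Among the 5 were Rpl4 (-0.55 ± 0.15), Rplp1 (-0.58 ± 0.18) and Rps24 (-0.57 ± 0.18). At an unadjusted p under 0.05 (edgeR) were 25 of the 68, against 648 of all 4907 genes. Median counts in those sets were 276, 164 and 152 against 140, 129 and 128, and the part of depth in the 5 calls was not tested. Within the class of 100 to under 150 counts, which held fewer counts, 0 of 49 passed edgeR's threshold, as did 0% of all 1162 genes tested. Of the 49, 0 had an unadjusted p under 0.05 (edgeR), against 30 of the 1162, and the median of the 49 was -0.08. The share in that class was still lower with Mki67 or Top2a in each of the 3 tumours (3.94%, 1.78% and 4.71% against 4.12%, 1.92% and 4.86%), a paired difference of -0.153 ± 0.0238 percentage points (SD, n = 3). With 3 tumours an exact test of a paired difference could not pass the threshold.

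**Figure D5:**
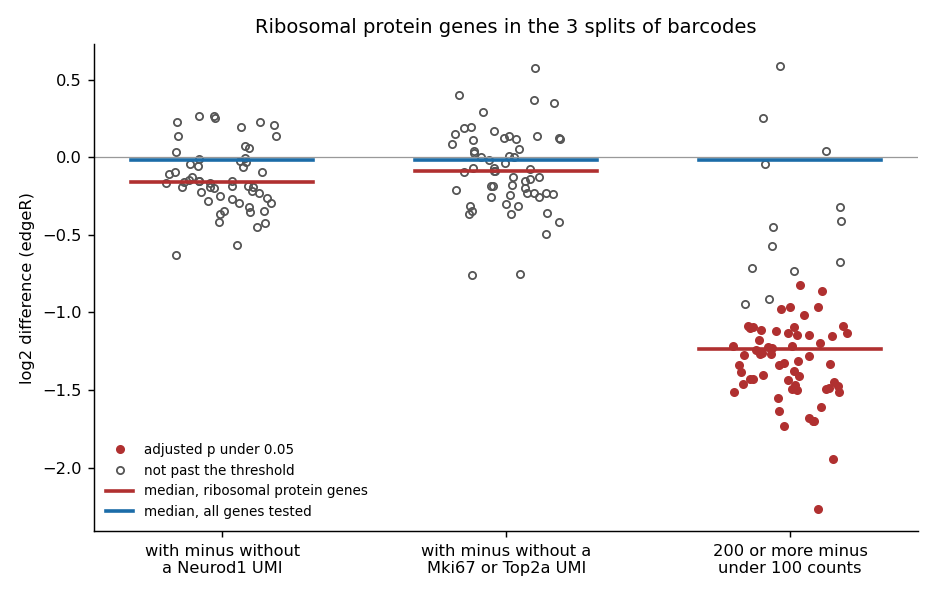
Log2 difference (edgeR) of each tested ribosomal protein gene in the 3 divisions of barcodes; filled points passed the threshold, open points did not, and lines give the medians of ribosomal protein genes and of all genes tested. The medians were -0.16, -0.09 and -1.24, and the only filled points, 61 of 74, are in the comparison of deep with shallow barcodes.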

How the data were processed

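Per the labels' protocols, tumours of 3 mice were dissociated with papain and made into Drop-seq 3' libraries. UMI counts per gene and barcode were deposited, with no normalization recorded. STAR, Cell Ranger and build GRCh38 are listed in the submitters' processing notes, without roles. Gene symbols were those of mouse, so no coordinates were taken from the tables, and every barcode held at least 50 genes. Levels are counts per 10000 non-mitochondrial counts. Counts were summed per tumour and set of barcodes and tested with edgeR 4.0.16 in R 4.3.3 (TMM, filterByExpr, quasi-likelihood, adjusted p under 0.05), with the tumour as a block because both sets of a comparison come from the same animal. The genes that define a set were left out of its table. The summed sets held 19292 to 466239 counts. Data were simulated for these 3479, 3866 and 6480 genes (Neurod1, Mki67 or Top2a, and depth). Changes of 2-fold were recovered in 41%, 30% and 38% of cases and changes of 4-fold in 99%, 98% and 98%. The simulation used the same assumed dispersion for all genes, no difference between tumours and increases alone. Rates in the real data may therefore differ. DESeq2 1.42.0, other filters, scalings, thinning and left-out tumours were alternatives; the classes of 200 to under 300 and 100 to under 150 counts, and leaving out barcodes with over 100 ribosomal protein UMIs, were chosen after seeing the data, as were the alternatives for the difference of the share.

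The genes named are the 10 highest, 5 lowest, stalk and paralog genes, and in each comparison those past the threshold (up to 10 by p) or, with fewer than 5, the 5 highest and 5 lowest; list genes were named up to 5 a list. The members, lists and comparisons were chosen with earlier results of these data known. No table column of other samples was used, doublets were not called, and no cell annotation was used. Single values of a few genes are not reported here, though they stay in the counts and medians.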

Additional observations from a re-analysis of the deposited data

Results flagged for a closer look

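Beside the mouse symbol Rpl24, the tables held a symbol in capitals, RPL24, written as a human gene is. It had 22, 6 and 31 counts in tumours 1, 2 and 3, or 59 counts in all, outside every comparison made here. Rpl24 itself had 61, 10 and 80 counts in the same tumours. Which transcript the capital symbol stands for was not tested.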

How the results depend on the processing

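In the comparison by Neurod1, 0 ribosomal protein genes passed under each alternative run, and in that by Mki67 or Top2a the only alternative with calls was the minimum of 100 counts, with 5. The depth comparison varied more. Against 61 of 74, with 10.6% of all genes lower, it gave 7 without the replicate block, with 0.988% of all genes. For at least 500 against under 100 counts it gave 25, and the share over all genes there is not given here. It gave 11 of 66 without tumour 1, with 0.479% of all genes. Without tumour 2 it gave 66 of 77, with 969 of all 7164 genes lower, and without tumour 3 it gave 0 of 69, with 0%. Each of these fits leaves 2 tumours, and the cause of the different counts was not tested. The share of ribosomal protein genes, 3.15% on average, was 1.83% in barcodes of at least 200 counts alone, and 16 of the named gene levels moved there by more than their SD. The difference of that share by Neurod1, -0.182 percentage points, was -0.396 without barcodes holding other cell type markers, -0.493 from 100 counts, 0.178 from 500 counts, -0.342 after thinning to 200 UMIs, -0.287 without barcodes holding both kinds of marker, and -0.297 and -0.308 within 200 to under 300 and 100 to under 150 counts. By Mki67 or Top2a it was -0.0619, against -0.564 from 100 counts and -0.131 to 0.0437 with 1 tumour left out. With Neurod1, tumour 2 had only 97 ribosomal protein counts without other cell type markers and 70 after thinning. The cause of these movements was not tested.

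Counts of all genes called moved too, and the cause was not tested. By Neurod1 they were 36, against 0 without the replicate block, 68 without TMM, 15 by DESeq2, 113 without barcodes holding other cell type markers, 57 from 100 counts, 9 from 500 counts, 210 without barcodes holding both kinds of marker, 6 within 200 to under 300 counts, 1 within 100 to under 150, and 0 to 155 with 1 tumour left out. By Mki67 or Top2a they were 111 (77 higher, 34 lower), against 50 without the block, 68 by DESeq2 (58 higher, 10 lower), 177 from 100 counts, 12 from 500 counts, 34 after thinning to 200 UMIs, 171 without barcodes holding both, 9 and 0 within the narrow depth classes, and 0 to 168 with 1 tumour left out. By depth they were 1109 (425 higher, 684 lower), against 90 without the block, 283 by DESeq2 (60 higher, 223 lower), 258 for at least 500 counts, 365 for the nearer classes, and 0 to 1693 with 1 tumour left out.

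Log2 differences that turned sign were all of genes not past the threshold. By Neurod1, Rps15a was -0.58 by DESeq2, -0.18 and -0.07 without tumours 1 and 3 (0.42 without tumour 2), -0.17 from 100 counts, and -0.10 and -0.36 within 200 to under 300 and 100 to under 150 counts. Rps28 was -0.25 from 100 counts, and -0.11 and -0.33 within those classes. Within 100 to under 150 counts Rps27l was 0.26. Rps2 and Rpl29 were -0.085 and -0.092 from 100 counts. By Mki67 or Top2a, Rpl6 was -0.29 from 100 counts, -0.25 within 100 to under 150 and -0.27 without tumour 1 (0.60 without tumour 3), Rps3a1 was -0.35 and -0.41 in the first 2 of these, and Rpl37a -0.16, -0.21 and, after thinning, -0.12. Rpl22l1 and Rpl19 were -0.041 and -0.19 from 100 counts, and Rpl26 was 0.10 without tumour 3 and -0.53 without tumour 2.

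At this depth a change of 2-fold in 1 gene was often missed in simulated data, so a gene that did not pass is not shown to be equal.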

Other observations

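Barcodes of 1 depth class varied somewhat more in ribosomal protein content than sampling alone gives, at a depth that shows such variation poorly. After each barcode was thinned to 50 UMIs, the variance of its ribosomal protein count over that of binomial sampling was 1.01 to 1.43 in the 12 combinations of tumour and depth class, highest for tumour 1 at 100 to under 200 counts. The thinned counts averaged only 0.556 to 2.42 a barcode, so a ratio near 1 does not show that barcodes were alike. A ratio of 1.43 at the 1.82 counts of that class would correspond to an SD of the share between barcodes of 48.5% of its mean. In tumours 2 and 3 that class had 53.6% and 26.8%. Under 100 counts the values were 25.1%, 36.7% and 18.9% in tumours 1, 2 and 3. From 200 to under 500 counts they were 55.5%, 13.1% and 51.2%. At 500 counts or more they were 46.2%, 86.9% and 40.5%, with only 9 barcodes in tumour 2. Depth still differed within a class, and the 50 UMIs were drawn from all counts, mitochondrial ones included. The part of either in these values was not tested. In barcodes under 100 counts of tumour 1, the median barcode had 4.65% and the 5th and 95th percentiles were 1.14% and 10%. In tumour 3, 2 barcodes held more than 100 ribosomal protein UMIs, the highest with 161 of 3415 counts. With these left out, 60 of 74 genes were lower in deep barcodes, against 61 of 74 with them in. The share over all genes without them is not given here.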
